A study of Mus musculus with 9 samples.

Results

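The proteasome subunit genes were described here in white gastrocnemius, the pale and mostly fast-fibred portion of this calf muscle, from mice that lack acid alpha-glucosidase (gene symbol Gaa) and from wild-type mice. The members were the 38 genes named Psma1 to Psma7, Psmb1 to Psmb7, Psmc1 to Psmc6, Psmd1 to Psmd14 and Psme1 to Psme4, picked by symbol from the 18061 genes of the deposited table. They fall into 14 genes of the core particle (Psma and Psmb), 6 genes of the base ATPases (Psmc), 14 other genes of the regulatory particle (Psmd) and 4 genes of the activators (Psme). RNA sequencing had been run on 5 knock-out libraries, from mice 5 months old with the GAA knock-out genotype, and on 4 wild-type libraries, 2 from mice of 5 months and 2 from mice of 6 months. Per the labels, the disruption targets exon 6 of Gaa with LOX P sites in introns 5 and 6, with no tissue-specific driver named, and the strain is a mixed background (BL6/129j) kept by brother-sister mating for more than 20 generations. No mouse is named in the labels, only a library number, and p-values therefore reflect spread among libraries, which may be technical. The wild-type columns carry no age, so both ages form 1 arm and age cannot be told apart from library within it. The knock-out mice were all 5 months old, so age also differs in part between the genotypes, and its part was not tested.

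Acid alpha-glucosidase degrades glycogen in lysosomes, and its loss is the cause of Pompe disease. The proteasome is a separate route of protein breakdown: a barrel of stacked alpha and beta rings cuts proteins inside a closed chamber, and a regulatory particle with a ring of ATPases and a lid recognises ubiquitin chains, removes them and threads the substrate in. Activators of the Psme family can cap the barrel in place of the regulatory particle. In muscle the ubiquitin and proteasome route breaks down much of the contractile protein, and its subunit genes are known for rising together in wasting muscle.

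The libraries bore out their labels at the targeted gene, since Gaa averaged 3.44 ± 0.204 RPKM in the knock-out and 49.4 ± 4.48 RPKM in the wild type (SD, n = 5 and 4; log2 fold change -3.80, SE 0.07, exact two-sided permutation p = 0.0079, the smallest that 126 splits allow). RPKM are reads scaled to transcript length and library size, so they allow levels to be set side by side between genes. The estimated depth was 17.6 to 37.6 reads per RPKM and kilobase in the knock-out, lowest in ko3, and 37.2 to 64.3 in the wild type. The 6 skeletal muscle markers had a summed level of 66766 to 75054 RPKM in the knock-out and 63924 to 68906 RPKM in the wild type, and Myh4, the myosin of the fastest fibres, stood at 10778 to 12637 RPKM in the knock-out and 11885 to 15619 RPKM in the wild type. Of the 6 muscle markers 1 was called higher, Ckm (log2 fold change 0.30, limma adjusted p = 0.022), and none lower. After centring each library on its median, Ckm did not pass and Myh4 was called lower (-0.34, adjusted p = 0.017). Markers of other cells differed too. All 11 tested of 12 macrophage markers were higher in the knock-out. Their sum was 76.7 to 128 RPKM in the knock-out and 30.8 to 39.8 RPKM in the wild type. In the knock-out 3 of 5 fibroblast markers were higher, 5 of 7 endothelial markers lower and 3 of 3 red blood cell markers lower. Over all tested genes 37.0% were called higher and 14.8% lower. Under quantile normalization, and with the trend with transcript length removed, 2 of the 5 fibroblast markers were higher. The endothelial sum was 21.6 to 38.4 RPKM in the knock-out and 31.0, 36.7, 51.1 and 48.1 RPKM in the wild type, where wt3 and wt4 stood above wt1 and wt2. Without wt3 and wt4, 3 of the 7 endothelial markers were lower: Cdh5 (adjusted p = 0.13) and Kdr (adjusted p = 0.3) lost their call, and the log2 fold change of Kdr was -0.35, against -0.87 over all libraries. Kdr also lost its call without any one of ko1, ko3, ko4, ko5, wt3 and wt4. Without wt1 and wt2, 6 endothelial markers were lower, and 10 macrophage and 2 fibroblast markers were higher. None of the macrophage markers was at 0 in any library. Proteasome genes are active in every cell, and the part of this difference in cell make-up in the values below was not tested. In bulk tissue a change in the number of cells of a type and a change in RNA per cell cannot be told apart.

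All 38 proteasome genes passed the filter on low values (mean RPKM of at least 0.5) and were tested. Of these, 28 rose in the knock-out, 1 fell (Psme4) and 9 did not pass the threshold of 0.05 (limma, Benjamini-Hochberg adjustment over 11032 genes); across all tested genes 37.0% were called higher and 14.8% lower. In 25 members all 5 knock-out values lay above all 4 wild-type values, a separation seen in 30.9% of all genes, and in no member did they all lie below. The median log2 fold change of the members was 0.31, against 0.12 over all tested genes, and 29.5% of all genes had a larger change than the members' median. The 9 members that did not pass were Psma3, Psma6, Psmb2, Psmd1, Psmd6, Psmd8, Psmd9, Psme1 and Psme3. In some genes, such as Psmd8, wt1 and wt2 stood apart from wt3 and wt4. Without wt1 and wt2, 25 members were called higher and none lower, and without wt3 and wt4, 23 were higher and 1 lower. Of all 11032 genes, 3159 were higher and 1494 lower without wt1 and wt2. The counts over all genes were 4064 higher and 1321 lower without wt3 and wt4.

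The size of these changes depends on the scale. The median gene lay 0.12 (log2) higher in the knock-out, and when each library was centred on its own median, 20 members were higher and 2 lower (Psme4 and Psmd1), with a members' median of 0.19, while 25.1% of all genes were then higher and 25.0% lower. Removing the trend of the values with transcript length from each library also removed the overall level of that library. The resulting change is therefore not that of length alone. With this trend removed, 16 members were higher and 6 lower (Psma6, Psmb2, Psmd1, Psmd6, Psme1 and Psme4), with a median of 0.11. Of all genes, 24.8% were then higher and 24.1% lower. The members that kept a higher call under both were Psma7, Psmb1, Psmb3, Psmb4, Psmb5, Psmb6, 5 of the 6 Psmc genes, Psmd4, Psmd5, Psmd11, Psmd13 and Psme2.

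**Figure D1:**
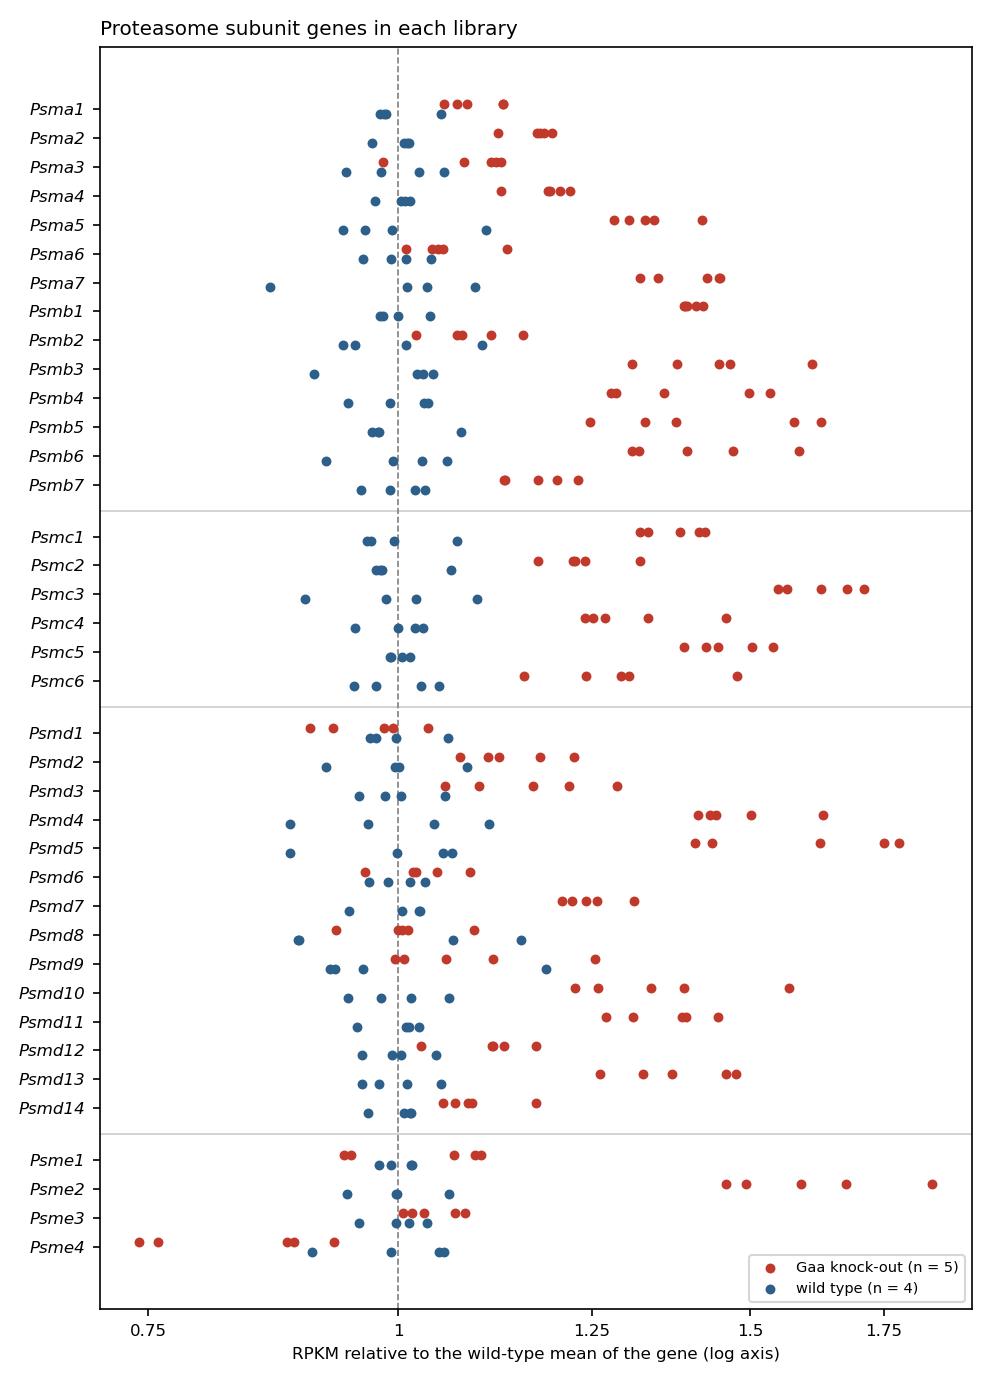
Level of each of the 38 genes in each library, divided by the wild-type mean of the gene (log axis); each point is 1 library, with 5 knock-out points above 4 wild-type points in each row and lines between core, base ATPase, other regulatory and activator genes. All knock-out points lie right of all wild-type points in 25 genes, and Psme4 is the gene whose knock-out points lie furthest left.

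The promoters of a few members are shown because the factor NFE2L1 (gene Nfe2l1), which drives proteasome genes in mouse cells when proteasome activity is short, binds antioxidant response elements, and because the genes that carry the letters of that element did not all move the same way. RefSeq windows of 300 bases, 250 before and 50 after the start, were at hand for 32 of the 38 members (35 windows, assembly GRCm38.p6). The core of the element, TGACNNNGC on either strand, was found in the windows of 6 members, Psmb5, Psmb6, Psmc6, Psmd9, Psmd12 and Psme4, which is 17.1% of the members' windows and 12.4% of all 32851 windows. The CCAAT box, on either strand, was found in 34.3% of the members' windows and 37.4% of all windows, and no member held both motifs. Of these 6, Psmd12, with a small rise (log2 fold change 0.15, limma adjusted p = 0.027), and Psmd9, which did not pass (adjusted p = 0.31), are not shown. Below are 3 members that rose, Psmb5, Psmb6 and Psmc6, and Psme4, which fell, each 5′ to 3′ on the strand of the gene, with the matching letters in capitals.
Psmb5: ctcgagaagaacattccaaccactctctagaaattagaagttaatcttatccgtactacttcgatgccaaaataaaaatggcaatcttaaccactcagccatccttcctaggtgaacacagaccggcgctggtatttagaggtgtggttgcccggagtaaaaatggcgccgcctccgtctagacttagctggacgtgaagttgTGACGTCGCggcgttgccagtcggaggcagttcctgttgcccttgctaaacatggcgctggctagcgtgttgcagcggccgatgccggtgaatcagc
Psmb6: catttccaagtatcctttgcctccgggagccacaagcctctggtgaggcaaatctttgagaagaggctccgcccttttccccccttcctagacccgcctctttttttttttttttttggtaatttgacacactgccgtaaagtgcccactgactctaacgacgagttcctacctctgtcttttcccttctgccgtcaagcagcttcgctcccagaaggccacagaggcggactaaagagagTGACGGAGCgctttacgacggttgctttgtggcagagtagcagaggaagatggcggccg
Psmc6: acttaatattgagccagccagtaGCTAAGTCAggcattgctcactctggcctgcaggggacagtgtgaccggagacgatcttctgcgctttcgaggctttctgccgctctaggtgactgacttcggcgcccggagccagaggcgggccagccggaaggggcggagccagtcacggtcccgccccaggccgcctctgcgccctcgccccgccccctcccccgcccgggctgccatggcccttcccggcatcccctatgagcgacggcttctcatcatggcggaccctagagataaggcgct
Psme4: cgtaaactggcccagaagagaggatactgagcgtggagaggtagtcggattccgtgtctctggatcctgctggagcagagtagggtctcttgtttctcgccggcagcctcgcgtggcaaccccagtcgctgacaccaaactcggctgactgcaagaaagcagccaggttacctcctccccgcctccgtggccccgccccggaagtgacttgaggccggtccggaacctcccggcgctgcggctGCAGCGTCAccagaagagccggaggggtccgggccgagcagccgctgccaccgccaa
The match began 7 bases before the start in Psme4 and 9 bases before it in Psmb6. It began 47 bases before the start in Psmb5 and 227 bases before it in Psmc6, and it reads on the opposite strand in Psmc6 and Psme4. A match is a run of letters and not a measured binding site.

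In the alpha ring, whose subunits form the outer rings of the barrel and its gate, 5 of 7 genes rose. Over all tested genes 37.0% were called higher. After centring 2 of the 7 were higher, against 25.1% of all genes. With the length trend removed 1 was higher and 1 lower, against 24.8% and 24.1% of all genes. Psma7 had 77.3, 78.3, 71.5, 73.0 and 78.4 RPKM in the knock-out and 59.1, 54.7, 55.9 and 46.7 RPKM in the wild type. The lowest knock-out value stood above the highest wild-type value, for a log2 fold change of 0.49 (SE 0.07, adjusted p = 0.00011). Psma5 rose by 0.42 (SE 0.06, adjusted p = 0.00012), with 18.6 to 20.6 RPKM in the knock-out and 13.6 to 16.0 RPKM in the wild type. Psma2 and Psma4 rose by 0.23 and 0.24 (adjusted p = 0.001 and 0.00065); neither passed after centring, and with the length trend removed the value of Psma4 changed sign to -0.0031. Psma1 rose by only 0.13 (adjusted p = 0.036), a call lost without any one of ko4, ko5, wt1, wt2 and wt4 (adjusted p up to 0.091), and its sign turned under quantile normalization and with the length trend removed. Psma3 and Psma6 did not pass (log2 fold changes of 0.12 and 0.08, adjusted p = 0.11 and 0.19): Psma6 had 77.1 to 86.6 RPKM in the knock-out and 73.4 to 79.3 RPKM in the wild type, and the ranges overlapped. Psma3 passed without ko2 (adjusted p = 0.032), the library with its lowest knock-out value of 24.8 RPKM.

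In the beta ring, which holds the cutting sites, 6 of 7 genes rose, against 37.0% of all genes. The catalytic subunits are Psmb5, which cuts after hydrophobic residues, Psmb6, which cuts after acidic ones, and Psmb7, which cuts after basic ones. Psmb5 had 66.6, 68.7, 56.1, 58.1 and 52.6 RPKM in the knock-out and 40.9, 41.2, 45.4 and 41.3 RPKM in the wild type. Psmb6 had 87.2, 80.8, 72.5, 76.7 and 71.9 RPKM in the knock-out and 54.7, 56.5, 58.1 and 50.6 RPKM in the wild type. In both genes ko1 and ko2 were the highest libraries and no knock-out value reached down to the wild-type range, with log2 fold changes of 0.51 (SE 0.08, adjusted p = 0.00024) and 0.50 (SE 0.07, adjusted p = 8.1e-05). Psmb7 was the most abundant member in both genotypes, with 173, 162, 162, 177 and 169 RPKM in the knock-out and 142, 148, 146 and 138 RPKM in the wild type. Its groups did not overlap either, yet its rise of 0.23 (SE 0.05, adjusted p = 0.0018) was smaller, did not pass after centring and turned sign under quantile normalization (-0.061) and with the length trend removed (-0.018).

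The 4 beta subunits without a cutting site are structural parts of the same ring. Psmb1 had closely spaced values, 62.1, 60.9, 60.8, 61.0 and 61.7 RPKM in the knock-out and 45.4, 43.0, 43.7 and 42.9 RPKM in the wild type, for a rise of 0.49 (SE 0.04, adjusted p = 2.5e-06). Psmb3 averaged 59.9 ± 4.68 RPKM in the knock-out and 41.5 ± 2.57 RPKM in the wild type, and Psmb4 101 ± 8.68 RPKM in the knock-out and 72.5 ± 3.07 RPKM in the wild type (SD, n = 5 and 4). They rose by 0.53 and 0.47 (adjusted p = 5.4e-05 and 0.00011), and in each of them every knock-out library lay above every wild-type library. Psmb2 did not pass, with 39.8 to 45.0 RPKM in the knock-out and 36.6 to 43.0 RPKM in the wild type (log2 fold change 0.12, adjusted p = 0.11); it passed without wt3 (adjusted p = 0.031), its highest wild-type library.

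Every base ATPase gene rose in the knock-out, with no overlap between genotypes in any of the 6. Of all genes, 37.0% rose and 30.9% had all knock-out values above all wild-type values. The base ATPases form the hexameric motor that unfolds the substrate and docks on the alpha ring. Psmc3 had the largest change of all members, with 129.8, 132, 126, 121 and 119.7 RPKM in the knock-out and 84.7, 78.9, 76.2 and 69.4 RPKM in the wild type. Its mean was 1.63-fold higher in the knock-out, a log2 fold change of 0.70 (SE 0.06, adjusted p = 3e-06) that was 0.58 after centring. Psmc5 had 88.4, 90.5, 84.9, 83.7 and 81.7 RPKM in the knock-out and 59.0, 58.2, 59.5 and 58.2 RPKM in the wild type, and rose by 0.55 (SE 0.05, adjusted p = 2.2e-06). Psmc1, which with Psmc3 and Psmc4 carries the tail motif that opens the gate of the alpha ring, averaged 47.9 ± 1.63 RPKM in the knock-out and 34.9 ± 1.69 RPKM in the wild type and rose by 0.46 (adjusted p = 1.7e-05). Psmc4, Psmc6 and Psmc2 rose by 0.39, 0.37 and 0.31 (adjusted p = 0.00017, 0.00083 and 0.00035). Psmc2 and Psmc6 had their highest value in ko3, the shallowest library, which for Psmc6 was 68.4 RPKM, with 53.5 to 60.4 RPKM in the other knock-out libraries. All 6 kept their call after centring and 5 with the length trend removed, where Psmc2 did not pass (log2 fold change 0.11, adjusted p = 0.12). The share of all genes called higher was 25.1% after centring and 24.8% with the length trend removed.

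**Figure D2:**
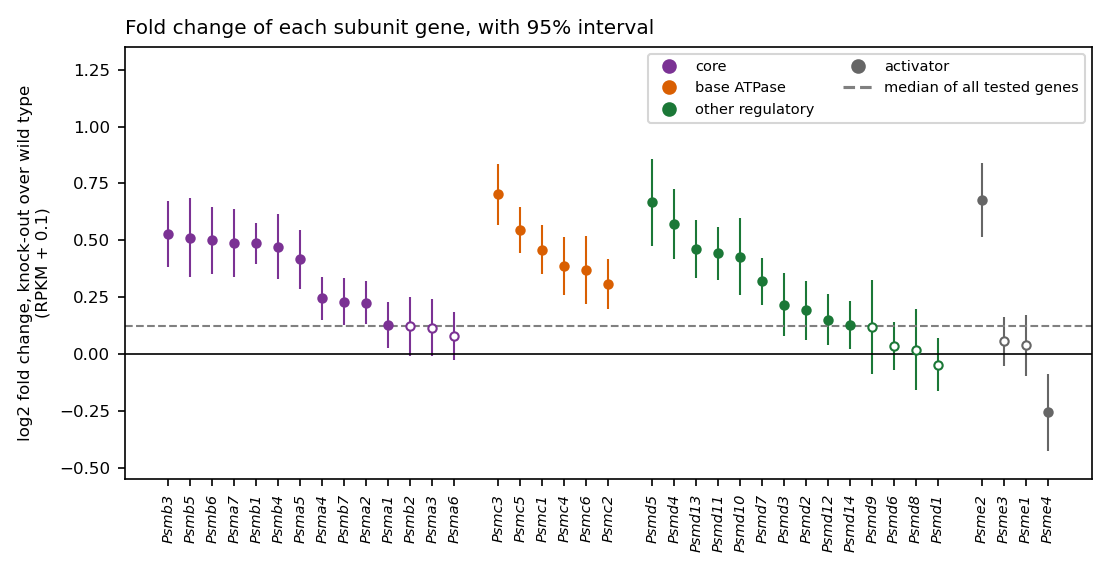
Log2 fold change of each gene, knock-out over wild type on log2(RPKM + 0.1), sorted within its class, with the 95% interval of limma; filled points passed the threshold and open points did not. The dashed line marks the median of all tested genes at 0.12; the 6 base ATPase genes lie between 0.31 and 0.70, and the activators range from -0.26 to 0.68.

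Among the other regulatory genes 10 of 14 rose and none fell, against 37.0% of all genes higher and 14.8% lower. After centring 6 of the 14 were higher and 1 lower, against 25.1% and 25.0% of all genes. With the length trend removed 4 were higher and 2 lower, against 24.8% and 24.1% of all genes. Psmd4, a receptor for ubiquitin chains, had 115, 125, 111, 108 and 110.1 RPKM in the knock-out and 85.3, 80.1, 74.2 and 67.8 RPKM in the wild type. The groups stood apart, with a rise of 0.57 (SE 0.07, adjusted p = 4.5e-05). The large base scaffold subunits Psmd1 and Psmd2, which hold the ATPase ring and, in Psmd2, dock ubiquitin shuttles, did not stand apart. Psmd1 had 43.6, 46.7, 46.2, 42.5 and 48.6 RPKM in the knock-out and 46.9, 49.8, 45.8 and 45.5 RPKM in the wild type, with a log2 fold change of -0.05 (adjusted p = 0.49) that was called lower after centring (-0.17, adjusted p = 0.03). Psmd2 rose by 0.19 (SE 0.06, adjusted p = 0.017), but its groups overlapped, the call was lost without wt4 (adjusted p = 0.058) and it did not pass after centring.

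The lid removes the ubiquitin chain through Psmd14, a metalloprotease paired with Psmd7, and is otherwise made of scaffold subunits. Psmd7 had 77.3, 76.3, 80.6, 74.2 and 75.1 RPKM in the knock-out and 63.1, 63.0, 61.8 and 58.1 RPKM in the wild type, all knock-out values above all wild-type values, and rose by 0.32 (adjusted p = 0.00016). Psmd14 differed by less, with 21.1, 20.8, 21.2, 20.5 and 22.8 RPKM in the knock-out and 18.8, 19.8, 19.6 and 19.7 RPKM in the wild type. Its call (0.13, SE 0.05, adjusted p = 0.046) was lost after centring and without any one of ko1, ko3, ko5 or the wild-type libraries (adjusted p up to 0.12), and its sign turned under quantile normalization and with the length trend removed. Psmd11, which clamps the lid to the core, and Psmd13, a lid scaffold, rose by 0.44 and 0.46 (adjusted p = 3.4e-05 and 5.1e-05) without overlap, and both calls held after centring and with the length trend removed. The lid scaffolds Psmd3 and Psmd12 rose by 0.22 and 0.15 (adjusted p = 0.013 and 0.027) with overlapping groups, neither passed after centring, and Psmd12 turned sign with the length trend removed. The call of Psmd12 was also lost without any one of ko3, wt1, wt3 and wt4 (adjusted p up to 0.08).

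Psmd8 and Psmd6, further lid scaffolds, did not pass. Psmd8 had 113, 104, 104, 103 and 96.0 RPKM in the knock-out and 119, 109.9, 91.9 and 92.0 RPKM in the wild type. The wild-type libraries split, with wt1 above every knock-out value and wt3 and wt4 below every one, and the log2 fold change of 0.02 (adjusted p = 0.86) took the other sign without wt3 and wt4 (-0.14). Psmd6 ranged over 69.9 to 78.9 RPKM in the knock-out and 70.3 to 74.9 RPKM in the wild type (log2 fold change 0.04, adjusted p = 0.54).

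Psmd5, Psmd9 and Psmd10 carry subunit names but are chaperones that hold base ATPases during assembly and leave the finished particle, and they were 3 of the 4 least abundant members. Psmd5 had 10.4, 8.56, 10.6, 9.70 and 8.39 RPKM in the knock-out and 5.27, 5.96, 6.28 and 6.34 RPKM in the wild type. Its rise of 0.67 (SE 0.09, adjusted p = 7.2e-05) was among the 3 largest and stayed at 0.60 with the length trend removed. Psmd10, known as an oncoprotein in liver, rose by 0.43 (SE 0.08, adjusted p = 0.00073), with 5.45 to 6.97 RPKM in the knock-out and 4.19 to 4.71 RPKM in the wild type; with the length trend removed it did not pass (adjusted p = 0.059). Psmd9, the least abundant member, averaged 3.94 ± 0.382 RPKM in the knock-out and 3.63 ± 0.454 RPKM in the wild type and did not pass (adjusted p = 0.31). Its wild-type values included 1 library, wt3, at 4.30 RPKM, above 4 of the 5 knock-out libraries.

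The 4 activator genes, whose products cap the core in place of the regulatory particle, differed among themselves. Psme2 and Psme1 encode the 2 partners of a mixed ring that interferon gamma induces and that is known for peptide supply to antigen presentation. Psme2 had 10.8, 9.27, 9.76, 8.49 and 8.69 RPKM in the knock-out and 5.82, 6.17, 5.81 and 5.49 RPKM in the wild type. No values overlapped, and Psme2 rose by 0.68 (SE 0.07, adjusted p = 2e-05). Psme1 had 14.2, 16.0, 14.1, 16.5 and 16.4 RPKM in the knock-out and 14.7, 14.9, 15.3 and 15.3 RPKM in the wild type, with overlapping groups and a log2 fold change of 0.04 (adjusted p = 0.63). The level of Psme2 relative to Psme1 was 0.513 to 0.757 in the knock-out libraries and 0.360 to 0.414 in the wild-type libraries, higher in every knock-out library than in any wild-type one. Psme2 was listed on 2 lines; the first, with 8.38 ± 0.471 RPKM in the knock-out and 4.84 ± 0.799 RPKM in the wild type, carried the difference, and the second averaged 1.02 ± 0.581 RPKM in the knock-out and 0.982 ± 0.585 RPKM in the wild type (SD, n = 5 and 4). The annotation names a protein-coding copy of Psme2, Psme2b, and how reads were shared between such copies is not given in the sources used here.

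Psme4 encodes a large single-chain activator known for a role in acetylated histone breakdown and DNA repair. It had 45.4, 46.4, 56.8, 54.3 and 53.8 RPKM in the knock-out and 64.5, 64.2, 55.4 and 60.7 RPKM in the wild type. It was lowest in ko1 and ko2, and ko3 overlapped the wild-type value of wt3. The log2 fold change of -0.26 (SE 0.08, adjusted p = 0.016) was kept under each scaling and without any single library (adjusted p up to 0.048) but lost without wt1 and wt2 (adjusted p = 0.16). Relative to the summed core genes, Psme4 stood at 0.0485 to 0.0658 in knock-out libraries and 0.0753 to 0.0896 in wild-type libraries, without overlap. Psme3, whose product forms a ring of its own in the nucleus, ranged over 14.2 to 15.3 RPKM in the knock-out and 13.5 to 14.6 RPKM in the wild type and did not pass (log2 fold change 0.06, adjusted p = 0.36). The sign of Psme1 and of Psme3 turned after centring.

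The genes were also summed over each class, as transcript. A class is not always a part of the finished particle. The other regulatory sum includes the assembly chaperones Psmd5, Psmd9 and Psmd10, and the activator sum pools separate caps. The core genes summed to 936, 906, 863, 892 and 890.2 RPKM in the knock-out and 719.9, 723, 736 and 681 RPKM in the wild type, 1.26-fold higher in the knock-out means. The base ATPases summed to 434, 436, 439, 413 and 413 RPKM in the knock-out and 307, 302, 303 and 297 RPKM in the wild type, 1.41-fold higher. In both classes every knock-out sum lay above every wild-type sum, and the wild-type sums of the ATPases spanned less than 10 RPKM. The other regulatory genes summed to 675 ± 17.2 RPKM in the knock-out and 577 ± 27.2 RPKM in the wild type, without overlap, and the activators to 90.9 ± 4.68 RPKM in the knock-out and 96.2 ± 4.54 RPKM in the wild type, with overlap (SD, n = 5 and 4). Because the summed RPKM of all genes was itself higher in every knock-out library, the sums were also taken as a share of it. As a share, the core took 0.243% to 0.255% of knock-out libraries and 0.216% to 0.225% of wild-type libraries, and the ATPases 0.115% to 0.124% of knock-out libraries and 0.0921% to 0.0942% of wild-type libraries. The shares of the other regulatory genes then overlapped, at 0.181% to 0.192% among knock-out libraries and 0.173% to 0.184% among wild-type libraries, and those of the activators were lower in every knock-out library, at 0.0227% to 0.0269%, against 0.0276% to 0.0305% in the wild type. Psme4 was the largest part of the activator sum, with means of 51.4 RPKM in the knock-out and 61.2 RPKM in the wild type. It was the only activator called lower, and Psme2 was called higher.

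**Figure D3:**
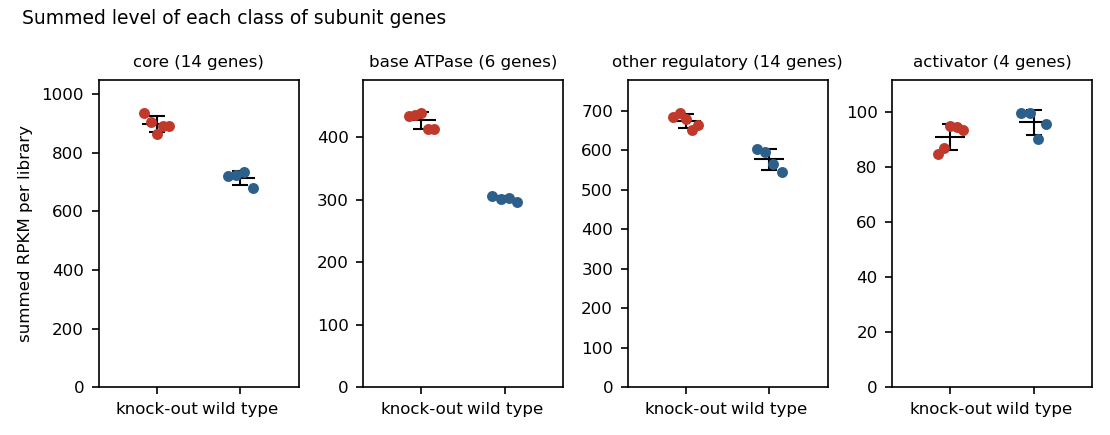
Summed RPKM of the genes of each class in each library, knock-out left and wild type right; each point is 1 library, and the bars are the mean and SD over 5 knock-out and 4 wild-type libraries. The core, base ATPase and other regulatory sums do not overlap between genotypes, and the activator sums do.

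The summed transcript levels of the classes did not keep the same proportions between the genotypes. The ratio of the summed ATPase to the summed core genes, which does not depend on the scaling of a library, was 0.463, 0.481, 0.509, 0.463 and 0.464 in the knock-out and 0.426, 0.417, 0.412 and 0.436 in the wild type. Within the core, the summed beta over the summed alpha genes was 1.86, 1.84, 1.68, 1.74 and 1.64 in the knock-out and 1.57, 1.56, 1.61 and 1.56 in the wild type. Both ratios were higher in every knock-out library than in any wild-type library, and the beta over alpha ratio was highest in ko1 and ko2. Abundant genes weigh most in such sums. Psmc3, the member with the largest change, averaged 125.7 ± 5.42 RPKM in the knock-out and 77.3 ± 6.33 RPKM in the wild type (SD, n = 5 and 4). Whether the ATPase to core ratio stays apart without Psmc3 was not tested. The beta genes are shorter than the alpha genes in the median (899 bases for the catalytic and 1021 for the other beta genes, 1201 for the alpha genes), and ratios between genes of unequal length carry any trend with length.

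Members were short transcripts, and short transcripts as a whole stood higher in the knock-out. The median length of the members was 1526 bases, and 27 of the 38 fell in the shortest of 3 equal groups of genes by length (up to 2137 bases), of which 49.6% were called higher and 9.46% lower, with a median log2 fold change of 0.23. Of those 27 members 22 were called higher and none lower, with a median of 0.42. In the middle group 5 of 9 members and 35.5% of all genes were higher. The longest group held Psmd5, which rose, and Psme4, which fell, while 25.7% of all its genes were higher and 20.3% lower. Across genes, Spearman's rho between length and log2 fold change was -0.23 over 10875 genes and -0.30 over the 38 members, as a description of genes that share the same libraries and depth. The part of this trend in the members' changes was not tested beyond the values with the trend removed. Those values were also without the overall level of each library.

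**Figure D4:**
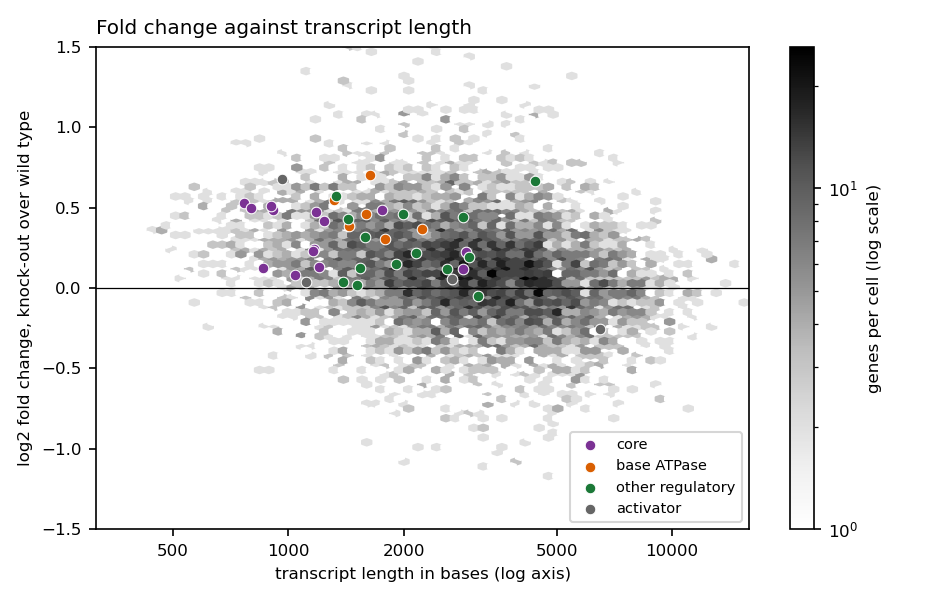
Log2 fold change, knock-out over wild type, against transcript length (log axis) for 10875 genes with a length (grey cells, darker for more genes; 324 genes lie outside the axes) and for the 38 members (coloured by class). Most members lie left of 2137 bases and above 0, Psmd5 is the long member with a high value, and Psme4 is the longest, with a value below 0.

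Some members share sequence or position with other genes. The annotation places another gene on the opposite strand over 9 of them (Psma4, Psma5, Psmb7, Psmc3, Psmd1, Psmd3, Psmd9, Psmd13 and Psme1), and the treatment of strand is not given in the sources used here; reads of such pairs cannot be told apart. Of the overlapping genes, Slc39a13, which lies over Psmc3, averaged 8.71 ± 1.08 RPKM in the knock-out and 6.98 ± 0.487 RPKM in the wild type, and Nek6, over Psmb7, averaged 3.19 ± 0.435 RPKM in the knock-out and 5.37 ± 0.360 RPKM in the wild type (SD, n = 5 and 4). Sirt3, over Psmd13, averaged 9.34 ± 0.762 RPKM in the knock-out and 8.10 ± 0.662 RPKM in the wild type (adjusted p = 0.041), against 39.8 ± 2.60 RPKM in the knock-out and 28.9 ± 1.16 RPKM in the wild type for Psmd13. AY074887, over Psma4, averaged 4.56 ± 0.599 RPKM in the knock-out and 3.86 ± 0.571 RPKM in the wild type and did not pass (adjusted p = 0.11). The part of reads from overlapping genes in the members' values was not tested. Named pseudogenes exist for Psma5, Psmb5, Psmb6 and Psmb7, whose values are uncertain to the extent that reads were split with them.

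Other genes of the pathway were counted in 6 lists of 40 symbols, of which 39 were found and 37 tested; 18 were higher, 1 was lower and 18 did not pass, against 37.0% of all genes higher and 14.8% lower. After centring 10 of the 37 were higher and 5 lower, against 25.1% of all genes higher and 25.0% lower, so the share of the lists called higher was then close to that of all genes. Of the assembly chaperones outside the members, 4 of 5 rose. Pomp, which guides the beta ring and is consumed as the core matures, had 90.6, 85.8, 97.2, 84.0 and 82.2 RPKM in the knock-out and 52.4, 49.0, 51.0 and 50.5 RPKM in the wild type. The groups were far apart, for a rise of 0.79 (SE 0.06, adjusted p = 6e-07), above that of any member. Psmg2 and Psmg4, which act in different pairs that build the alpha ring, rose by 0.57 and 0.54 (adjusted p = 2.3e-05 and 9.8e-05). Their partners moved less: Psmg1 rose by 0.21 (adjusted p = 0.032), a call lost after centring and without any one of ko1, ko2, ko3 and wt2, with the sign turned when the length trend was removed, and Psmg3 did not pass (log2 fold change 0.15, adjusted p = 0.21).

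The immunoproteasome subunits replace the catalytic ones in immune cells and under interferon, and 1 of the 3 tested rose, against 37.0% of all genes. Psmb10, which takes the place of Psmb7, had 7.72, 6.92, 5.10, 6.30 and 6.19 RPKM in the knock-out and 3.99, 3.72, 4.47 and 3.91 RPKM in the wild type. Without overlap, it rose by 0.66 (SE 0.11, adjusted p = 0.00032). Psmb8, which takes the place of Psmb5, had 1.49, 1.91, 1.43, 1.60 and 1.64 RPKM in the knock-out and 1.56, 1.90, 2.49 and 2.42 RPKM in the wild type. These overlapped, with a log2 fold change of -0.34 (adjusted p = 0.058) that was called lower under each of the 3 other scalings (-0.47 after centring), without wt1 and wt2, and without ko2 or wt1 alone. Psmb9, which takes the place of Psmb6, did not pass, with 0.559 to 1.17 RPKM in the knock-out and 0.732 to 1.48 RPKM in the wild type. In Psmb8 and Psmb9 the wild-type libraries wt3 and wt4 were higher than wt1 and wt2. Psmb11 and Psma8, known from thymus and testis, were close to 0 in all libraries. Macrophage markers, which were higher in the knock-out, summed to 76.7, 83.5, 80.2, 128 and 88.2 RPKM in ko1 to ko5. Of 6 lymphocyte markers only Cd3e passed the filter, while the other 5 lay at or near 0. Cd3e had 1.20, 1.43, 1.61, 1.13 and 1.18 RPKM in the knock-out and 0.0373, 0.0551, 0.711 and 0.832 RPKM in the wild type, where wt1 and wt2 were near 0 and wt3 and wt4 were not. It was higher in the knock-out by a log2 fold change of 1.97 (adjusted p = 0.0084), which was 0.69 without wt1 and wt2 and 3.26 without wt3 and wt4. The part of these cells in Psmb10 and Psme2 was not tested.

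After centring, 2 of the 9 bound factors were higher and 1 lower, against 25.1% of all genes higher and 25.0% lower. Without centring 5 of the 9 rose, against 37.0% of all genes. They include Adrm1, a further ubiquitin receptor (0.37, adjusted p = 0.0014), Akirin2, which takes proteasomes into the nucleus (0.38, adjusted p = 0.00048), Usp14, which trims ubiquitin from substrates (0.25, adjusted p = 0.0035), and Shfm1, a small lid protein (0.24, adjusted p = 0.0044), all log2 fold changes. Only Akirin2 and Adrm1 of these 4 passed after centring. AI314180, a large protein that holds core and regulatory particle together, did not pass (log2 fold change -0.13, adjusted p = 0.19) but was called lower after centring (-0.25, adjusted p = 0.031). Of 10 shuttle receptors and segregase genes 4 rose, a share near the 37.0% of all genes; after centring 1 was higher and 2 were lower, and without wt1 and wt2 there were 2 higher. Nploc4, a cofactor of the segregase VCP, rose by 0.55 (adjusted p = 4e-05), and Vcp itself by 0.20 (adjusted p = 0.0024), which did not pass after centring and turned sign to -0.019 under quantile normalization. The other two were Ufd1l, a partner of Nploc4 (0.17, adjusted p = 0.014), and Ubxn1, a further cofactor of VCP (0.21, adjusted p = 0.015), neither of which passed after centring and both of which were at or below 0 with the length trend removed.

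The regulators of proteasome genes did not move together. Nfe2l1, whose product drives subunit genes, had 154, 161, 156, 161 and 158 RPKM in the knock-out and 137, 125, 121 and 110.2 RPKM in the wild type. All knock-out values were above all wild-type values, for a rise of 0.36 (SE 0.06, adjusted p = 0.00039). Nfe2l1 is listed on several lines, and with the most abundant line alone the change was 0.18 and did not pass (adjusted p = 0.089), as it did not under quantile normalization (0.13, adjusted p = 0.11). Ddi2, the protease that cuts NFE2L1 into its active form, had 6.22, 7.82, 5.93, 5.85 and 6.48 RPKM in the knock-out and 11.8, 14.8, 10.3 and 9.65 RPKM in the wild type. It fell by 0.83 on the log2 scale (SE 0.12, adjusted p = 0.00016), with every knock-out value below every wild-type value. Ngly1, which strips sugars from NFE2L1, did not pass (log2 fold change 0.09, adjusted p = 0.19), and Stub1, a ubiquitin ligase, rose by 0.29 (adjusted p = 0.0097), a call lost after centring. Nfe2l2, the related factor of the oxidative stress response, had 16.1, 15.3, 18.6, 14.3 and 15.7 RPKM in the knock-out and 16.4, 23.1, 13.0 and 13.0 RPKM in the wild type. Its groups overlapped and wt2 stood far above the others, with a log2 fold change of 0.00 (adjusted p = 0.99) over all libraries and a call of higher without wt1 and wt2 (0.29, adjusted p = 0.028).

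Genes that encode ubiquitin were also described. Ubb, a polyubiquitin gene, had 520.1, 542, 487, 472 and 520.0 RPKM in the knock-out and 379, 353, 354 and 323 RPKM in the wild type. Rps27a, in which ubiquitin is fused to a ribosomal protein, had 123, 109, 121, 117 and 113 RPKM in the knock-out and 77.5, 76.5, 76.3 and 73.3 RPKM in the wild type. Neither gene overlapped between genotypes, and the rises were 0.53 for Ubb (SE 0.06, adjusted p = 2.9e-05) and 0.62 for Rps27a (SE 0.05, adjusted p = 1.6e-06), past the threshold under each scaling. The activating enzymes did not pass: the log2 fold change was 0.12 for Uba1, the main enzyme for ubiquitin, 0.01 for Uba6, an alternative one, and 0.08 for Uba7, which serves an interferon-induced relative of ubiquitin. Uba7 had 0.620, 1.10, 0.731, 0.814 and 0.565 RPKM in the knock-out and 0.335, 0.557, 1.08 and 1.14 RPKM in the wild type, where wt3 and wt4 were the highest. Without wt3 and wt4 it was called higher in the knock-out (log2 fold change 0.67, adjusted p = 0.044), while without wt1 and wt2 it stood at -0.51 (adjusted p = 0.074).

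**Figure D5:**
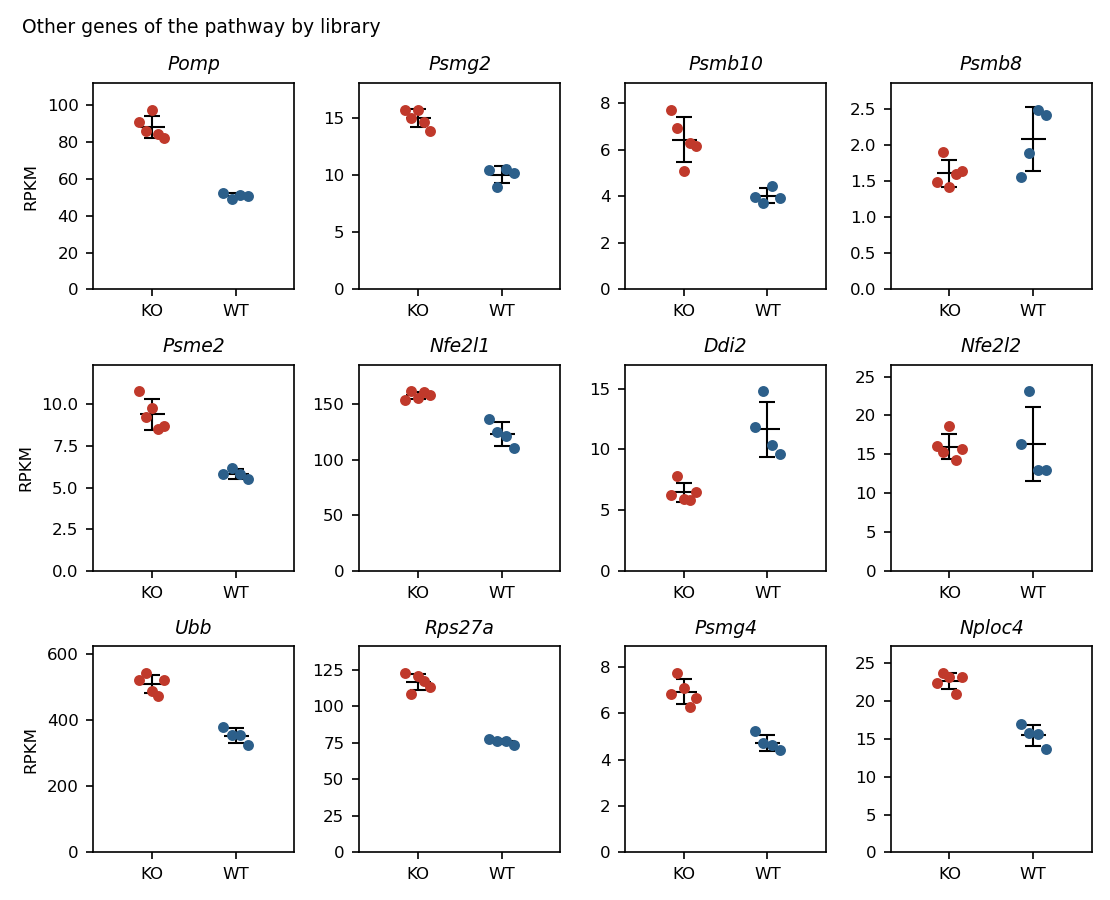
RPKM of 12 genes in each library, knock-out (KO) left and wild type (WT) right; each point is 1 library, and bars are the mean and SD over 5 and 4 libraries. Pomp, Psmg2, Psmg4, Psmb10, Psme2, Nfe2l1, Nploc4, Ubb and Rps27a are higher in every knock-out library, Ddi2 is lower in every one, and Psmb8 and Nfe2l2 overlap.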

How the data were processed

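Total RNA was taken up in Trizol and turned into libraries with an Illumina TruSeq RNA kit, per the labels' protocols. The authors deposited 1 table of RPKM values for 23665 RefSeq transcripts, 1 column per library; per the submitters' processing notes the build was mm9 and the tools TopHat 1.3.2, Bowtie 0.12.7.0 and Partek 6.6, with roles, strand setting and filters not given in the sources used here. A spreadsheet had made dates of the symbols of 37 lines; the accessions gave back 36. Values were summed per symbol. Genes with a mean of at least 0.5 RPKM were tested on log2(RPKM + 0.1), which understates changes of low genes, with limma 3.58.1 in R 4.3.3 (lmFit, eBayes with trend, two-sided, Benjamini-Hochberg over 11032 genes, threshold 0.05), 5 knock-out against 4 wild-type libraries. The step was tested on simulated data. Depth was estimated from the steps that single reads leave in low values: 70.8% to 74.3% of values of at most 5.5 estimated reads lay within 0.1 of a whole read, where chance gives 20%. That falls short of whole reads for nearly all genes, so no count test was run. Transcript lengths and overlaps came from GENCODE vM21 (GRCm38), not the files' build, so no coordinates are given; promoter windows are from RefSeq. Alternatives changed the pseudocount, filter, scaling, lines per gene, variance model and libraries. The members and lists were chosen with earlier results of these data known. The text names every member and, of the related lists, genes described beside a member; Paaf1 was not found, and some genes of these lists are left out of the counts and not reported here. Python 3.11.15, pandas 2.3.3, numpy 2.4.6, scipy 1.17.1 and matplotlib 3.10.9 were used.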

Additional observations from a re-analysis of the deposited data

Results flagged for a closer look

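Of 166 groups of values (Gaa, each proteasome gene, the related genes described, the ratios and the summed classes, per genotype) 13 held a library that lay apart from the others of its genotype by more than Dixon's 95% critical value, where chance gives about 1 in 20. In the wild type, wt3 was high for Psma1 (40.0 RPKM, against 37.3 to 37.6 in the others), for Psmb5 (45.4 RPKM, against 40.9 to 41.3) and for Psmd9 (4.30 RPKM, against 3.35 to 3.48), and its ratio of summed beta to alpha genes was high (1.61, against 1.56 to 1.57) and that of Psme4 to the core low (0.0753, against 0.0888 to 0.0896). Wild-type library wt4 was low for Psma2 (27.5 RPKM, against 28.5 to 28.7), for Psmb3 (37.7 RPKM, against 42.4 to 43.2) and for the summed alpha ring (265.7 RPKM, against 280.3 to 282), and high for Psmc2 (54.7 RPKM, against 50.2 to 50.5). Psmd14 was low in wt1 (18.8 RPKM, against 19.6 to 19.8), and Akirin2 in wt4 (7.92 RPKM, against up to 8.01). In the knock-out, ko1 was low for Psma2 (31.8 RPKM, against 33.2 to 33.8) and ko3, the shallowest library, for Psmb9 (0.559 RPKM, against 0.995 to 1.17). Psma2, Psmb3, Psmb5 and Psmc2 kept their calls without the library in question, Psmd9 did not pass with or without it, and the calls of Psma1 and Psmd14 are among those that single libraries decide.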

How the results depend on the processing

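The pseudocounts of 1 and 0.01, no filter on low values, a mean RPKM of at least 2, the most abundant line alone and the robust variance model kept all 38 members on their side of the threshold. Leaving out 1 library gave 24 to 29 members higher and 1 lower, 10 to 12 core, 6 base ATPase and 7 to 10 other regulatory genes higher, and 5005 to 5554 genes changed. The scaling moved more. Over all genes, 2758 were lower after centring; 2644 were higher and 3056 lower under quantile normalization; 2695 were higher and 2622 lower with the length trend removed. After centring 2 members were lower, 7 core genes were called, all higher, and 6 other regulatory genes were higher and 1 lower. Under quantile normalization 5 members were lower, 7 core genes were higher and 1 lower, and 6 other regulatory genes were higher and 3 lower. With the length trend removed 16 members were higher and 6 lower: 6 core genes higher and 2 lower, 4 other regulatory genes higher and 2 lower (6 called), and 2 activators lower. Without wt1 and wt2, 0 members and so 0 activators were lower and 1 activator was called; without wt3 and wt4, 6 other regulatory genes were called, all higher.

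Signs that turned were those of small changes (log2). After centring: Psma3 -0.011, Psma6 -0.048, Psmb2 -0.0046, Psmd6 -0.090, Psmd8 -0.11, Psmd9 -0.0081, Psme1 -0.089, Psme3 -0.070, Nfe2l2 -0.12, Ngly1 -0.036, Uba1 -0.0025, Uba6 -0.12, Uba7 -0.051 and the activator median -0.080. Under quantile normalization: Psma1 -0.013, Psma3 -0.077, Psma6 -0.14, Psmb2 -0.022, Psmb7 -0.061, Psmd6 -0.18, Psmd8 -0.21, Psmd9 -0.018, Psmd14 -0.036, Psme1 -0.13, Psme3 -0.11, Nfe2l2 -0.16, Ngly1 -0.070, Vcp -0.019, Ubxn1 -0.015, Uba1 -0.023, Uba6 -0.12, Uba7 -0.11 and the activator median -0.12. With the length trend removed: Psma1 -0.12, Psma3 -0.0098, Psma4 -0.0031, Psma6 -0.18, Psmb2 -0.16, Psmb7 -0.018, Psmd6 -0.19, Psmd8 -0.20, Psmd9 -0.017, Psmd12 -0.032, Psmd14 -0.088, Psme1 -0.22, Psme3 -0.077, Psmg1 -0.052, Psmg3 -0.12, Nfe2l2 -0.14, Ngly1 -0.031, Ubxn1 -0.054, Uba7 -0.034 and the activator median -0.15. Without wt3 and wt4, Psmd8 was at -0.14, Nfe2l2 at -0.29 and Psmb9 at 0.27, and Uba7 gained a call at 0.67 (adjusted p = 0.044); without wt1 and wt2, Uba6 was at -0.010 and Uba7 at -0.51. Leaving out 1 library gave -0.034 to 0.090 for Psmd8 (below 0 without ko1, wt3 or wt4), -0.094 to 0.18 for Nfe2l2 (below 0 without ko3, wt3 or wt4) and -0.31 to 0.020 for Psmb9 (above 0 without ko3), -0.041 to 0.069 for Uba6 and -0.22 to 0.28 for Uba7. The cause was not tested. No paired analysis was possible because the wild-type columns carry no age or label that ties them to the numbered wild-type samples. RPKM hold no counts, so a count model was not used; the shallowest library, ko3, gave the members at least 150 estimated reads.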
